A study of Sus scrofa with 3 samples.

Results

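Small RNA of the porcine psoas major, a muscle of the loin, was compared between the 63 d and the 161 d library, 2 of the 3 libraries of the series, chosen by the age given in their labels. The pigs were castrated hybrid males (Landrace × Large White × Duroc), labelled as fattening pigs, and equal amounts of RNA from several pigs of an age were pooled into 1 library. With 1 pooled library per age there was no replicate check, so that the spread between pigs of the same age is unknown and no p-value is given. Each ratio is the level at 161 d over the level at 63 d, and its 95% interval (exact conditional binomial, Clopper-Pearson) covers counting error only. Reads amplified by PCR are not independent molecules.

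MicroRNAs (miRNAs) are short RNAs cut from the 5p or the 3p arm of a hairpin precursor, and they repress mRNAs that pair with their seed, bases 2 to 8 of the mature strand. Members of a family share a seed, and hairpins that lie close together on a chromosome are often cut from 1 primary transcript. In skeletal muscle, miR-1, miR-133 and miR-206 are the classical muscle miRNAs, and miR-208b and miR-499 lie in introns of slow myosin heavy chain genes.

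The sequences on which the comparison turned are given first, as known mature sequences in the deposited files, 5′ to 3′, with the seed in capitals. The first set had higher levels at 161 d.
ssc-miR-143-3p: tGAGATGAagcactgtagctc
ssc-miR-140-3p: tACCACAGggtagaaccacggac
ssc-miR-340: tTATAAAGcaatgagactgatt
ssc-miR-195: tAGCAGCAcagaaatattggc
ssc-miR-16: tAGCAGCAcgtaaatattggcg
ssc-miR-148a-3p: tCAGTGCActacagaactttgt
ssc-miR-10b: tACCCTGTagaaccgaatttgt
ssc-miR-1: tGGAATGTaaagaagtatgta
The second set had lower levels at 161 d. It includes ssc-miR-206, which has the known seed of ssc-miR-1, and ssc-miR-92a and ssc-miR-363, which share a seed.
ssc-miR-206: tGGAATGTaaggaagtgtgtga
ssc-miR-92a: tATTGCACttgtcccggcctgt
ssc-miR-363: aATTGCACggtatccatctgtaa
ssc-miR-19b: tGTGCAAAtccatgcaaaactga
ssc-miR-378: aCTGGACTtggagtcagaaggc
ssc-miR-127: tCGGATCCgtctgagcttggct
ssc-miR-493-5p: tTGTACATggtaggctttcatt
ssc-miR-432-5p: tCTTGGAGtaggtcattgggt
ssc-let-7a: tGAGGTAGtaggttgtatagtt

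The files listed 1464699 miRNA reads at 63 d and 2242716 at 161 d, and levels are reads per 1000000 of these totals (RPM). Known miRNA names numbered 801 at 63 d and 867 at 161 d, of which 666 had reads in both libraries. The 310 names with reads in both and at least 100 reads together were compared, and they held 99.6% of the known reads at 63 d and 99.7% at 161 d. Of these, 23 (7.42%) were at least 2-fold higher at 161 d and 49 (15.8%) at least 2-fold lower, while 159 lay within 1.5-fold. Ratios were above 1 in 44.8% of names and below 1 in 55.2%, and the median ratio was 0.950. Scaling by edgeR's TMM gave 26 higher and 36 lower and moved the median log2 ratio from -0.07 to 0.07. DESeq2's median of ratios gave 30 higher and 32 lower with a median of 0.10, so that the share of higher names among all past 2-fold was 31.9%, 41.9% and 48.4% under the 3 scalings.

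**Figure D1:**
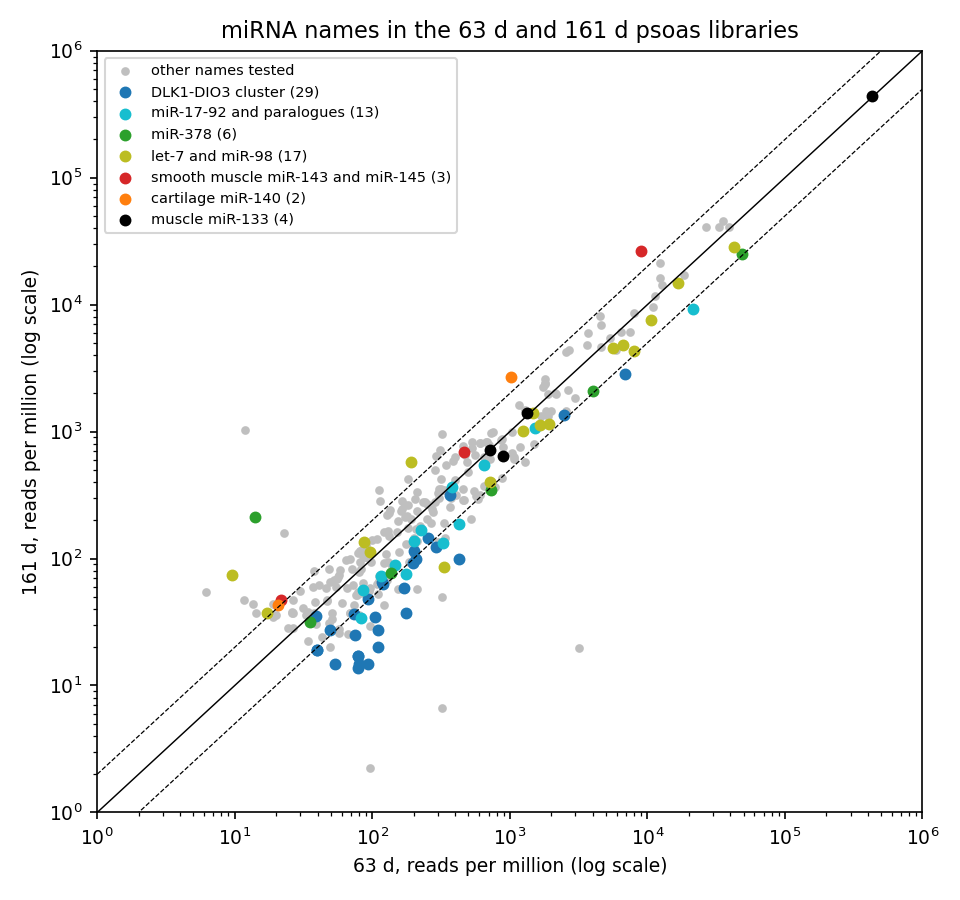
Levels of the 310 miRNA names at 63 d (horizontal) and 161 d (vertical), in RPM on log axes, 1 point per name, with named lists in colour; the solid line marks equal levels and the dashed lines 2-fold differences. The DLK1-DIO3 points lie below the solid line and miR-143-3p, the upper red point, lies above the upper dashed line.

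The muscle miRNAs were abundant in both libraries, in keeping with the labelled tissue, and did not move together. The level of ssc-miR-133a-3p was 432681 RPM at 63 d and 439710 at 161 d, a ratio of 1.02, and the miR-133 names held 43.6% and 44.2% of all reads. The level of ssc-miR-486 was 39181 and 40909 RPM, a ratio of 1.04. Both abundant names differed by less than 1.5-fold. For ssc-miR-1 the level was 12377 RPM at 63 d and 21259 at 161 d, a ratio of 1.72 (95% interval 1.69 to 1.75). For ssc-miR-206, with the same known seed, it was 1897 and 1321, a ratio of 0.696 (0.661 to 0.733), the opposite direction. The miR-1 and miR-206 list had 1.58 in sum. At both ages the representative reads of both names carried a mismatch to the known seed, written 1ss3GT in the files, and reads with mapping errors made up 95.5% and 94.7% of ssc-miR-1 and 93.3% and 91.2% of ssc-miR-206 at 63 d and 161 d. The reads of ssc-miR-1 without mapping error had a ratio of 2.04. Of the miRNAs in slow myosin genes, ssc-miR-208b had 535 RPM at 63 d and 822 at 161 d, a ratio of 1.54 (1.41 to 1.67). For ssc-miR-499-5p the level was 1034 and 995, a ratio of 0.962 (0.901 to 1.03), whose interval includes 1 and whose sign changed under TMM and DESeq2 scaling.

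Families were summed over all names of a number, whatever the species prefix, and counted past 1.5-fold. Of 33 families and marker lists, 7 were higher, 4 were lower and 22 lay within 1.5-fold. Among single names 16.1% were at least 1.5-fold higher and 32.6% at least 1.5-fold lower.

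**Figure D2:**
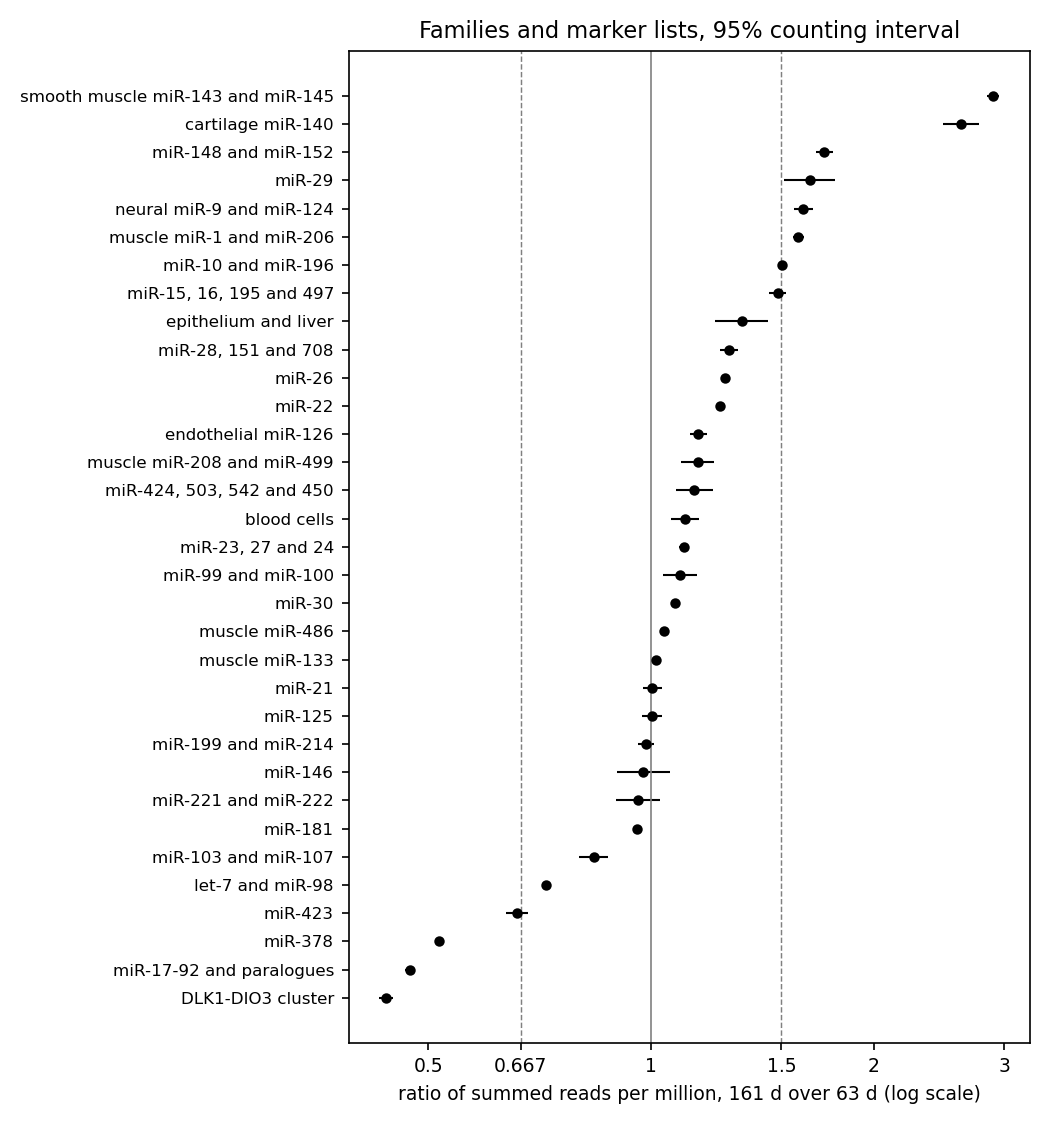
Ratio of summed RPM, 161 d over 63 d, on a log axis for 33 families and marker lists, with 95% counting intervals; the solid line marks 1 and the dashed lines 1.5-fold. The miR-143 and miR-145 list is highest at 2.90 and the DLK1-DIO3 list lowest at 0.439.

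The highest list was miR-143 and miR-145, which are abundant in smooth muscle. Its summed level was 9415 RPM at 63 d and 27273 at 161 d, a ratio of 2.90 (2.84 to 2.95). The level of ssc-miR-143-3p was 8916 and 26506, a ratio of 2.97 (2.92 to 3.03). Its cluster partner ssc-miR-145-5p had 464 and 688, a ratio of 1.48, and ssc-miR-145-3p had 21.8 and 47.3, a ratio of 2.16 (1.44 to 3.32). All 3 members were higher, and the major products of the neighbouring hairpins differed in the size of the change. In pooled tissue, more cells of a type and more miRNA per cell cannot be told apart.

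The cartilage miRNA miR-140 was the next list. Its 3p arm had 1019 RPM at 63 d and 2686 at 161 d, a ratio of 2.64 (2.49 to 2.79), and its 5p arm had 20.5 and 42.8, a ratio of 2.09 (1.37 to 3.26). The miR-29 family, which targets collagen mRNAs, had a summed ratio of 1.64 (1.51 to 1.78). The names ssc-miR-29a and ssc-miR-29c shared their representative read at 161 d and were not separate, with 1.62 when joined, and ssc-miR-29b had 1.83 (1.30 to 2.66).

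The miR-148 and miR-152 list had a summed ratio of 1.71 that lay mainly in 1 name. The level of ssc-miR-148a-3p was 4496 RPM at 63 d and 8153 at 161 d, a ratio of 1.81 (1.76 to 1.87). With the same seed, ssc-miR-148b-3p and ssc-miR-152 had ratios of 1.18 and 1.17. The 3 names share a seed and were higher to unequal degrees.

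The miR-10 and miR-196 list, from the HOX gene clusters, was split by seed. The level of ssc-miR-10b was 26630 RPM at 63 d and 40837 at 161 d, a ratio of 1.53 (1.52 to 1.55), and ssc-miR-10a-5p had a ratio of 1.64. In contrast, ssc-miR-196a had 588 and 292, a ratio of 0.497 (0.448 to 0.551), and ssc-miR-196b-5p had a ratio of 0.519. The list's summed ratio of 1.503 therefore described the miR-10 members, which held nearly all of its reads.

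The list of miR-15, miR-16, miR-195 and miR-497, whose members share a seed and are known to restrain cell cycle genes, had a summed ratio of 1.48 (1.44 to 1.52), just inside 1.5-fold. Under TMM and DESeq2 scaling the list was past 1.5-fold. Its members ranged widely. The level of ssc-miR-195 was 112 RPM at 63 d and 349 at 161 d, a ratio of 3.12 (2.63 to 3.71), and that of ssc-miR-497, from the same cluster, was 132 and 230, a ratio of 1.74. The most abundant member, ssc-miR-16, had 4583 and 6863, a ratio of 1.498. In the other direction, ssc-miR-15b had 186 and 93.6, a ratio of 0.504 (0.419 to 0.606).

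The lowest list was the DLK1-DIO3 cluster, an imprinted locus whose miRNAs are expressed from the maternal chromosome. Its summed level was 14484 RPM at 63 d and 6355 at 161 d, a ratio of 0.439 (0.429 to 0.448). All 29 names compared were lower at 161 d, where 55.2% of all names were, and 20 were at least 2-fold lower, where 15.8% were, and their median ratio was 0.429 beside 0.950 for all names. Under both other scalings 28 of 29 were lower, bta-miR-656 changing sign, and 15 were at least 2-fold lower. Some names were not separate, since the reads of miR-299-5p, miR-299-3p and miR-411 were each listed under a pair of names. With names joined that share a read or known sequence, a count chosen after seeing the data, which also brings in names listed in 1 library, 29 were lower and 20 at least 2-fold lower. The most abundant member, ssc-miR-127, had 6870 RPM at 63 d and 2817 at 161 d, a ratio of 0.410 (0.397 to 0.423). For bta-miR-381 the level was 2491 and 1341, a ratio of 0.538.

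The smallest ratios in the DLK1-DIO3 list belonged to less abundant names. The level of ssc-miR-493-5p was 92.9 RPM at 63 d and 14.7 at 161 d, a ratio of 0.158 (0.105 to 0.233). That of bta-miR-543 was 78.5 and 13.8, that of mmu-miR-370-3p was 110 and 20.1, and that of oar-miR-485-3p was 79.9 and 14.7, with ratios of 0.176, 0.183 and 0.184. For ssc-miR-432-5p the ratio was 0.209 (0.161 to 0.269). The names bta-miR-299 and mml-miR-299-5p had equal values, with a ratio of 0.220, since their reads were divided between them. At the other end of the list, bta-miR-656 had 38.9 and 35.2, a ratio of 0.905 (0.636 to 1.30), and hsa-miR-136-3p a ratio of 0.860.

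The miR-17-92 cluster and its paralogues, polycistrons known from proliferating cells, had a summed level of 26040 RPM at 63 d and 12280 at 161 d, a ratio of 0.472 (0.464 to 0.479). All 13 names were lower, where 55.2% of all names were, and 5 at least 2-fold lower, where 15.8% were. The names ssc-miR-17-5p and ssc-miR-106a had the same representative read, and joining names that share a read or known sequence left 12, all lower. Under both other scalings 12 were lower, ssc-miR-92b-3p changing sign. Most of the reads were those of ssc-miR-92a, with 21568 and 9260, a ratio of 0.429 (0.422 to 0.437). The smallest ratio was that of ssc-miR-19b, 0.408 (0.352 to 0.473), and ssc-miR-363 had 0.432. The miR-17 seed members were reduced less, with 0.610 for ssc-miR-17-5p and 0.741 for ssc-miR-20a, and ssc-miR-92b-3p, from another hairpin, had 0.971.

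The miR-378 family, whose member miR-378a lies in an intron of PPARGC1B, a coactivator gene of mitochondrial metabolism, was lower on both arms of miR-378a. The level of ssc-miR-378 was 48956 RPM at 63 d and 25057 at 161 d, a ratio of 0.512 (0.506 to 0.518), just outside the 2-fold class. The 5p arm, hsa-miR-378a-5p, had 728 and 346, a ratio of 0.475 (0.433 to 0.522). The name bta-miR-378b stood apart, with 14.0 and 214.03 RPM, a ratio of 15.3. Names of this family share most of their sequence, and the assignment of reads to them differed between the files.

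The miR-423 list was also lower past 1.5-fold, with 4238 RPM at 63 d and 2791 at 161 d, a ratio of 0.659 (0.636 to 0.682). Its 3p arm had a ratio of 0.575 and its 5p arm 0.784. Under TMM and DESeq2 scaling the summed ratio lay within 1.5-fold, and the median of the arms was 0.753 and 0.769.

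The let-7 and miR-98 list held 9.78% of all reads at 63 d and 7.07% at 161 d, a ratio of 0.722 (0.717 to 0.727). The level of ssc-let-7a was 42404 and 28465 RPM, a ratio of 0.671, and that of ssc-let-7f was 16659 and 14832, a ratio of 0.890. Between the abundant names the ratio was lowest for ssc-let-7i, 0.536 (0.522 to 0.551). Of 17 names, 12 were lower and 5 higher, beside 55.2% and 44.8% of all names. With DESeq2 scaling 10 were lower and 7 higher, ssc-let-7f and ssc-miR-98 changing sign, and ssc-miR-98 did so with TMM too. Among the 5 higher names, mmu-let-7c-5p with 7.74 and bta-let-7a-5p with 3.00 are names whose sequences lie close to those of abundant porcine let-7 names. The lowest ratio, 0.257, was that of oan-let-7e-5p. Joining names that share a read or known sequence left 14 names, 11 lower and 3 higher. The 3 higher were 3p arms, hsa-let-7b-3p with 1.18, bta-let-7a-3p with 1.55 and mmu-let-7f-1-3p with 2.19.

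Several abundant families lay within 1.5-fold. The miR-26 list had a ratio of 1.26, led by ssc-miR-26a with 35532 RPM at 63 d and 46000 at 161 d. The miR-22 list had 1.24, led by aja-miR-22 with 32939 and 40788. The miR-30 list had 1.08, the miR-125 list 1.00 and the miR-21 list 1.00. The miR-181 list had 0.958, with ssc-miR-181a at 18408 and 17019 RPM, a ratio of 0.925, whose sign changed under TMM and DESeq2 scaling. Against it, ssc-miR-181c, with the same seed, had 180.9 and 421.4, a ratio of 2.33 (2.03 to 2.68).

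The lists for other cell types had summed ratios above 1. The blood cell list had a summed ratio of 1.11 (1.06 to 1.16), from 0.587 for ssc-miR-142-3p to 1.44 for bta-miR-223. In it 7 names were higher and 2 lower, beside 44.8% and 55.2% of all names. These names include both arms of miR-142 and miR-144, and ssc-miR-150 and bta-miR-150 with ratios of 0.619 and 1.11. The endothelial miR-126 list had 1.16 in sum, with 1.31 on the 5p arm and 0.905 on the 3p arm, and the 3p arm changed sign under TMM and DESeq2 scaling. The neural list was higher in all 6 names, where 44.8% of all names were, with a summed ratio of 1.61. All of these but ssc-miR-124a were names for the arms of miR-9, so that they are not 6 separate miRNAs. Among them, bta-miR-9-3p, mdo-miR-9a-3p and mmu-miR-9-3p had the same representative read. Joining names that share a read or known sequence left 4 neural names, all higher and again all of miR-9 but ssc-miR-124a. The list was led by ssc-miR-9 with 3677 RPM at 63 d and 5980 at 161 d. The epithelium and liver list had 1.33 in sum, and its liver marker ssc-miR-122 had 7.51 and 5.35 RPM. The part of these cell types in the other differences was not tested.

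Genomic clusters were formed from hairpins with at least 100 reads that followed each other within 10000 bases on 1 strand, in 31 clusters with 83 hairpins. The genome build and chromosome names were not given in the sources used here. Reads of a mature sequence with several hairpins were divided between them, so that the ratio of such a hairpin is mainly that of the shared sequence. In 14 clusters all hairpins were lower at 161 d, in 8 all were higher and 9 were mixed. In sum, 3 clusters were at least 1.5-fold higher and 7 at least 1.5-fold lower. The 7 are not 7 independent loci. Those led by ssc-mir-127, ssc-mir-136 and ssc-mir-381 hold hairpins of the DLK1-DIO3 list, and those led by ssc-mir-92a-1 and ssc-mir-92a-2 share divided reads. Among single names 44.8% were higher and 55.2% lower, and 16.1% and 32.6% were so by at least 1.5-fold. The lower clusters include 1 led by sha-mir-716a, with 5 hairpins and 0.608 in sum. Its miR-716, miR-2904 and miR-6087 numbers were among those left out, as fragment-like sequences, in a count of names given below. Whether the hairpins of this cluster are miRNA precursors was not tested.

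**Figure D3:**
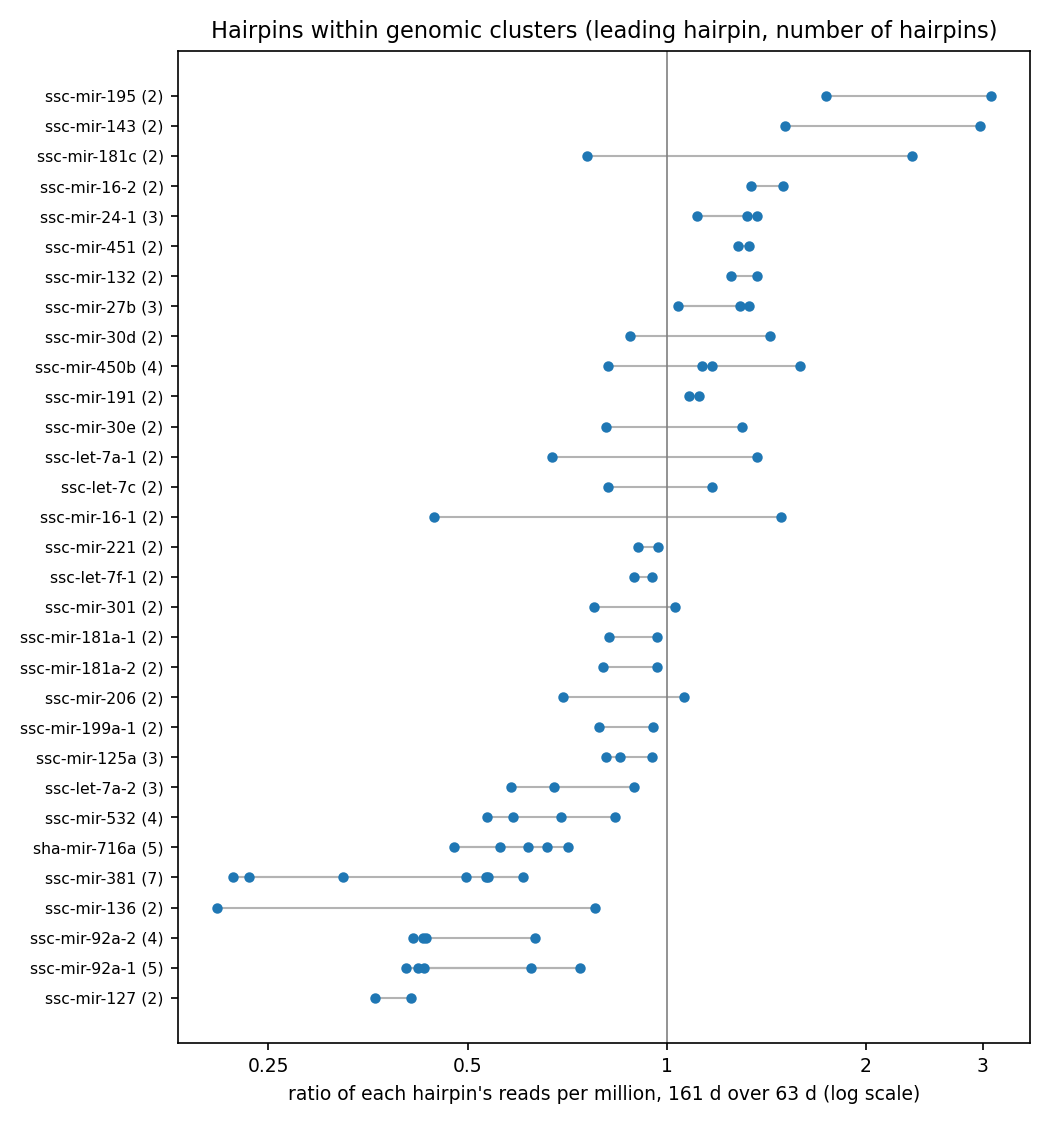
Ratio of RPM, 161 d over 63 d, on a log axis for each hairpin (points) of 31 genomic clusters (rows), named by the hairpin with most reads and the number of hairpins. The hairpins of the clusters led by ssc-mir-127, ssc-mir-92a-1 and ssc-mir-92a-2 all lie below 1, and those of the ssc-mir-143 and ssc-mir-195 clusters above 1.

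The cluster of ssc-mir-92a-1, with 5 hairpins within 791 bases, had a summed ratio of 0.439, and its hairpins ranged from 0.403 for ssc-mir-19b-1 to 0.739 for ssc-mir-20a. The paralogous cluster of ssc-mir-92a-2, with 4 hairpins within 922 bases, had 0.430 in sum and ranged from 0.413 to 0.631. Mature ssc-miR-92a and ssc-miR-19b cannot be assigned to 1 of the clusters, since the reads were divided between their hairpins. Of the hairpins with a mature sequence in 1 cluster alone, ssc-mir-19a had 0.421 and ssc-mir-20a 0.739 in the first, and ssc-mir-363-1 had 0.433 in the second.

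Of the DLK1-DIO3 list, the hairpin ssc-mir-493 lay in no cluster. The DLK1-DIO3 hairpins that did lie in a cluster fell into 3 of these clusters, and all of their hairpins were lower. The largest, with 7 hairpins over 25418 bases, was led by ssc-mir-381 and had 0.481 in sum, from 0.221 for bta-mir-485 to 0.606 for bta-mir-539. The pair of ssc-mir-127 and bta-mir-431 had 0.410 and 0.362. The pair of ssc-mir-432 and ssc-mir-136 differed more, 0.209 (0.161 to 0.269) against 0.778 (0.703 to 0.861). Outside this locus, a cluster of 4 hairpins led by ssc-mir-532 had 0.609 in sum, from 0.535 for ssc-mir-532 to 0.836 for bta-mir-660.

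Neighbours could also differ in direction. The hairpin ssc-mir-181c had a ratio of 2.35 (2.05 to 2.69), and ssc-mir-181d, within the same 300 bases, had 0.758 (0.619 to 0.933).

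The use of the hairpin arms was compared as the odds of 3p to 5p reads within a hairpin, which need no scaling between libraries. Hairpins needed at least 20 reads on each arm and 100 on the hairpin, in the 2 libraries together. Of these, 21 (19.8%) had odds at least 2-fold apart and 85 did not. Of the former, 11 shifted towards the 3p arm and 10 towards the 5p arm. Among them, the intervals of ssc-mir-10a, bta-mir-26b, ssc-mir-493, ssc-mir-374b and bta-mir-431 include 1. The major arm changed in 1 hairpin, ssc-mir-2320, whose 3p arm had 66.0% of the reads at 63 d and 22.8% at 161 d. The counts behind it were 17 and 33 reads on the 5p and 3p arm at 63 d, and 105 and 31 at 161 d, an odds ratio of 0.152 (conditional exact 95% interval 0.0701 to 0.327).

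**Figure D4:**
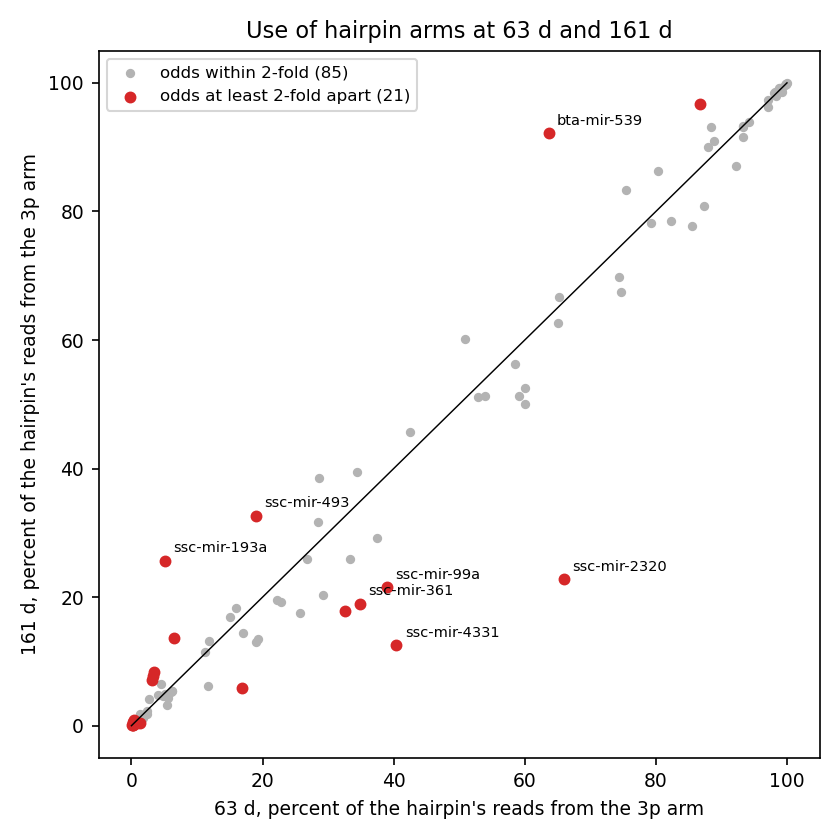
Percent of a hairpin's reads from the 3p arm at 63 d (horizontal) and 161 d (vertical) for 21 hairpins with odds of 3p to 5p at least 2-fold apart (red) and 85 others (grey); the line marks equal shares. The point of ssc-mir-2320 moves from 66.0% to 22.8%, and most points lie near the line.

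Towards the 5p arm, the next shifts were those of ssc-mir-4331, from 40.4% to 12.5% of reads on the 3p arm, and ssc-mir-15b, from 16.8% to 5.83%. The shares of ssc-mir-30b (1.31% to 0.476%) and ssc-mir-99a (39.0% to 21.6%) followed. Towards the 3p arm, bta-mir-539 of the DLK1-DIO3 list went from 63.6% to 92.2%, with 20 reads on the 5p arm at 63 d and 4 at 161 d. For ssc-mir-193a the share was 5.06% and 25.7%, with 4 and 29 reads on the 3p arm. For ssc-mir-365-1 it was 86.8% and 96.6%, an odds ratio of 4.38 (2.68 to 7.23). The odds ratio was 3.06 for ssc-mir-486-1 and 2.54 for bta-mir-431, whose interval, 0.950 to 6.99, includes 1.

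Both hairpins of miR-181a shifted alike. The 3p share was 3.08% at 63 d and 7.05% at 161 d for ssc-mir-181a-1, an odds ratio of 2.39 (2.14 to 2.67), and 3.22% and 7.72% for ssc-mir-181a-2, an odds ratio of 2.51 (2.26 to 2.80). The 5p products had ratios near 0.925, while hsa-miR-181a-3p and mdo-miR-181a-2-3p had 2.22 and 2.32. The 5p reads of both hairpins have 1 sequence and were divided, so that the odds are not independent.

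The representative read, the read with the best mapping score at an arm, differed between the ages for 16 of 167 names with at least 100 copies of it in each library. In these it was shorter at 161 d in 12 names and longer in 4. For the most abundant name, ssc-miR-133a-3p, it gained a base at its 5′ end, which moves the seed by a base. The capitals mark bases 2 to 8 of each read, with 280675 copies at 63 d and 420557 at 161 d.
63 d read: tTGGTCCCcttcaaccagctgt
161 d read: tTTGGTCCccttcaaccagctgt
The files list only 1 such read per arm, so that the share of each isoform at an age was not analysed here. Reads with mapping errors made up 17.2% of all reads at 63 d and 17.6% at 161 d.

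The most extreme ratios of all belonged to names whose known hairpin was not placed on the pig genome in the files, or to names of near-identical sequences. The level of sha-mir-716b-p5 was 3165 RPM at 63 d and 19.8 at 161 d, and that of sha-mir-716b-p3 was 11.9 and 1035. These 2 names share a read or known sequence, so that their opposite ratios do not describe separate arms. Joined, they had 3177 RPM at 63 d and 1055 at 161 d, a ratio of 0.332. The ratio was 0.0208 for hsa-mir-7641-1-p5 and 6.98 for hsa-miR-7641, and 0.0233 for hsa-miR-1260a and 8.93 for hsa-miR-1260b. Such pairs were read as uncertain. Matched by position, the 5p arm of the hairpin hsa-mir-7641-1 had a ratio of 0.510. The name bta-miR-484 had 472 reads at 63 d and 111 at 161 d, but cgr-miR-484, with the same first 16 bases, was listed at 0 and 426 reads.

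Among the largest ratios on porcine hairpins, ssc-miR-340 had 320 RPM at 63 d and 964 at 161 d, a ratio of 3.01 (2.72 to 3.33). For ssc-miR-885-5p the level was 114 and 286, a ratio of 2.51 (2.11 to 2.99). The ratios of ssc-miR-2320-5p, 4.03 (2.40 to 7.19), and ssc-mir-486-2-p3, 3.20 (1.96 to 5.47), rested on 17 and 20 reads at 63 d.

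Of 7 names with at least 100 reads in 1 library and 0 in the other, each had a partner with the same first 16 bases in the other library. At 63 d eca-miR-380 had 850 reads, and at 161 d mml-miR-380-3p had 598. Likewise oar-miR-3958-3p had 300 reads at 63 d and bta-miR-154c had 162 at 161 d, and oar-miR-495-3p had 160 reads at 63 d beside 64 of bta-miR-495 at 161 d. For bta-miR-200a, with 119 reads at 161 d, the partners at 63 d were bta-miR-141 and mdo-miR-200a-3p with 128 reads together. The miR-380, miR-3958, miR-154c and miR-495 names were read as changes of name between files and not as loss or gain. For bta-miR-200a this reading was not made, since mdo-miR-200a-3p was listed at both ages, with 86.0 RPM at 63 d and 64.7 at 161 d. Joined, these 2 names had a ratio of 1.37 (1.10 to 1.71). Partners of cgr-miR-484 were also listed at both ages, and the joined miR-484 names had a ratio of 0.729 (0.664 to 0.800).

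Predicted candidates, hairpins without a known miRNA, were matched by position and arm. With at least 100 reads at both ages there were 2 candidates, each with the same read at both ages. The 3p candidate had 1177 RPM at 63 d and 353 at 161 d, a ratio of 0.300 (0.275 to 0.327). The level of the 5p candidate is not given, since its read lies close to the end of a sequencing adapter and its origin was not tested.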

How the data were processed

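Small RNA libraries of psoas major muscle from pigs of 63 d and 161 d were analysed, grouped by the age in the labels; the 98 d library was not used here. The authors mapped reads to miRBase hairpins and the genome with ACGT101-miR. For each hairpin arm the deposited files hold expected counts, in which isoforms were added up and reads matching several hairpins were shared out, and counts of copies of a representative read. The authors normalised neither. The 63 d file has further columns and another legend than the 161 d file, and whether their settings were equal was not tested. The genome build was not given in the sources used here.

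Reads were summed over hairpins for each name, with isoform suffixes removed. In the 63 d file 139 entries had no name and took that of the same read or of the known miRNA of the arm. Levels are reads per 1000000 of all listed reads (1464699 and 2242716), without a pseudocount. Names needed reads in both libraries and 100 together, and families, clusters and arms followed the thresholds in the text. Named miRNAs were the 10 largest and 10 smallest ratios, the 12 most abundant names, for each list its 2 most abundant and its extreme members, the 5 largest arm shifts each way, candidates with 100 reads in both libraries, and names listed in 1 library; for lists described briefly only some are printed. The members and lists were chosen with earlier results of these data known. Python 3.11.15 and scipy 1.17.1 gave the intervals, and edgeR 4.0.16 and DESeq2 1.42.0 gave only scaling factors. The interval code was tested on simulated data. The 95% intervals cover counting error only.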

Additional observations from a re-analysis of the deposited data

How the results depend on the processing

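No paired analysis was possible because each age has 1 library. The counts of names past 2-fold, 23 higher and 49 lower of 310, varied most with the minimum of reads. This minimum also sets how many names are compared. The counts were 54 and 99 of 527 names with a minimum of 10 reads, and 8 and 11 of 130 names with 1000 reads. With no minimum beyond 1 read in each library they were 68 and 134. Porcine names only gave 12 higher and 16 lower of 186 names, beside 23 and 49 of 310. DESeq2's median of ratios gave 32 lower. It enters only as a size factor per library, 0.860 at 63 d and 1.16 at 161 d, which raised all ratios by the same factor. Joining names that share a read or a known sequence gave 19 and 42, and leaving out miR-716, miR-1260, miR-2904, miR-4492, miR-6087, miR-6236, miR-6240 and miR-7641 gave 19 and 39, both chosen after seeing the data. Arm shifts past 2-fold, 21, numbered 8 with 100 reads per arm, 63 with no minimum per arm and 13 with reads without mapping error. The count of 11 families past 1.5-fold ranged from 10 to 12, and that of 10 clusters was 12 with neighbours within 50000 bases. The families counted also changed: under TMM and DESeq2 scaling the miR-423 list left and the miR-15, miR-16, miR-195 and miR-497 list entered. Among the 310 names, 21 changed direction with TMM and 24 with DESeq2, and ssc-miR-181a, ssc-miR-499-5p and ssc-miR-126-3p were among them under both. Of the families past 1.5-fold and the named miRNAs past 2-fold, hsa-miR-1260a reversed, with a ratio of 1.31 for reads without mapping error only; the cause was not tested. Depth sets a floor of 3 counts, 2.05 RPM at 63 d and 1.34 at 161 d.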
